A study of Homo sapiens with 9 samples.

Results

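B6TC cells were compared with a calculated mid-parent level, the log2 of the average of the linear levels of the 2 lines that the labels name as their parents. The 3 B6TC arrays were set against 3 arrays of MDA-MB-231 cells (here MDA231) and 3 of ZR-75-1 cells (here ZR75). Of the 54675 probe sets of the Affymetrix Human Genome U133 Plus 2.0 array, 62 controls were left out and 33518 were set aside as dim. The remaining 21095 probe sets, which had a log2 level of 6 or more on at least 3 of the 9 arrays, are described here, and they represented 10751 named genes of 19775 on the array. MDA-MB-231/GFP/Neo was an ERα negative, G418 resistant line grown from 1 clone, and ZR-75-1/GFP/puro was an ERα positive, puromycin resistant line. Both parental lines carried GFP. B6TC cells were GFP positive and did not need estrogen, and were established from an orthotopic tumor that B6 cells, recovered from mouse bone marrow, had formed in a nude mouse without an estrogen supplement. The labels describe B6TC as a fusion line of both parents. All 3 lines were grown near confluence in the same medium, and RNA was taken from bulk cultures.

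A fused cell starts with the chromosomes and the regulatory proteins of both parents. If each parental genome were transcribed as in its own line, RNA levels would be additive, and an equal mix would sit at the mid-parent level. In somatic cell hybrids general housekeeping genes are often kept from both sides, whereas genes of a specialized program of 1 parent are often silenced, which is known as extinction. Comparing B6TC with the mid-parent level sorts genes by whether they kept to the additive expectation.

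The array compares equal amounts of RNA, so RNA per cell was not measured, and in bulk RNA fewer cells with a transcript and less RNA per cell cannot be told apart. The labels call the 3 arrays of a line technical replicates, and p-values therefore measure only the spread between such arrays, which was small (median SD within a line 0.0788 on the log2 scale). Array medians were 4.89 to 4.96, and 33.8% to 34.7% of probe sets were at 6 or more. The 24 probe sets of poly-A spike-ins, which are added to the RNA before labeling, averaged 9.08 in B6TC, 5.68 in MDA231 and 7.54 in ZR75. The level of β-actin at its 3′ end exceeded that at its 5′ end by 0.67, 0.32 and 0.73 in the same order, and the part of either in the differences below was not tested. At the edge of the filter the third highest level was 6.00001 for the last probe set kept and 5.99997 for the first left out. There were 279 probe sets (1.32%) that passed only through B6TC, 199 (0.943%) only through MDA231 and 1302 (6.17%) only through ZR75.

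Each probe set was called in 1 of 4 ways from the difference between B6TC and the mid-parent level on the log2 scale. It exceeded that level where the difference was 0.5 or more, and fell short where it was -0.5 or less, in both cases at a limma adjusted p of 0.05 or less. It followed the expectation where the 95% interval of the difference lay within -0.5 to 0.5, and was otherwise unresolved. The mid-parent level is at most 1 below the higher line, so an excess over 1 means a level above both lines, whereas a shortfall has no such limit. Where the lines differ by about 2-fold or less, a call of following cannot separate an additive level from that of the higher parent.

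At a limit of 0.5, the class that followed the additive expectation was the largest, and departures from it were divided about evenly between excess and shortfall. Of the 21095 probe sets, 10943 (51.9%) followed, 3723 (17.6%) exceeded, 3995 (18.9%) fell short and 2434 (11.5%) were unresolved. The size of the following class depends on the limit, as 4240 (20.1%) followed at a limit of 0.25 and 17431 (82.6%) at a limit of 1. Without the limit on size, 16505 (78.2%) differed from the mid-parent level at a limma adjusted p of 0.05 or less. Counted by gene, with the brightest probe set of each, 5522 (51.4%) followed, 2002 (18.6%) exceeded, 2042 (19%) fell short and 1185 (11%) were unresolved, with a median difference of -0.02. Probe sets of 1 gene did not always give the same call. Several probe sets were tested for 4955 genes, of which 2545 had all in 1 class and 50 had both an exceeding and a falling one.

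**Figure D1:**
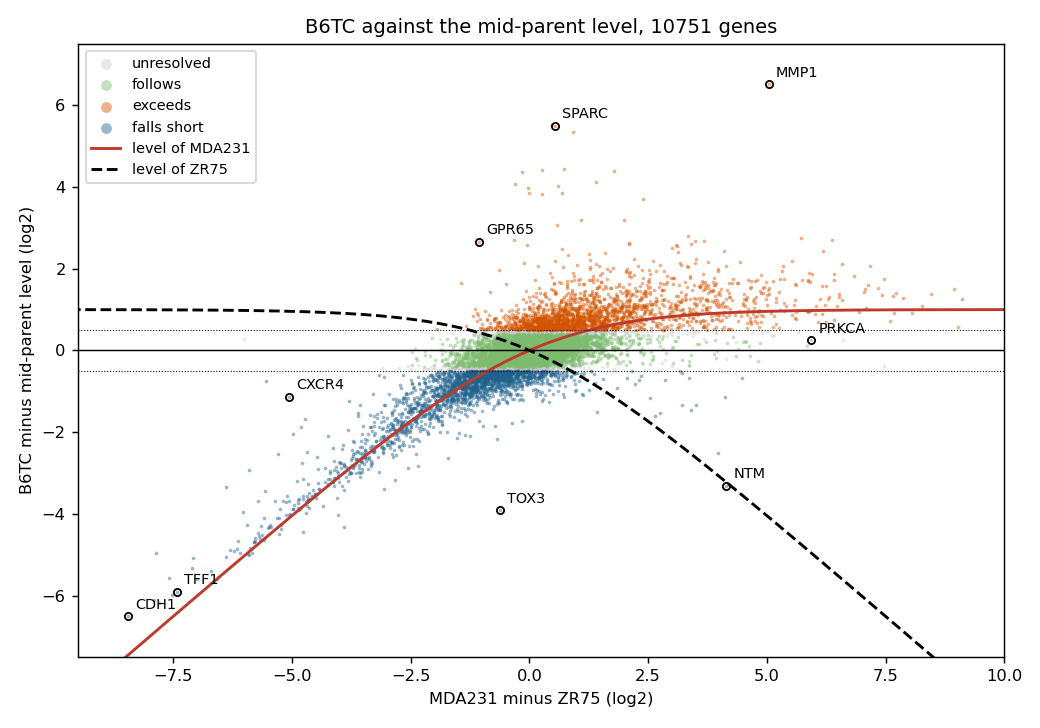
Each point is a gene (10751), with the log2 difference between MDA231 and ZR75 on the horizontal axis and the log2 difference between B6TC and the mid-parent level on the vertical axis, the lines marking where B6TC would equal either parent and dotted lines marking the limits of 0.5. Points with a large parental difference lie mostly along the MDA231 line on both sides, with MMP1, SPARC, TOX3 and CXCR4 among the points away from it.

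The calls divided by which parent was the higher. Of 1750 genes that were at least 2-fold higher in MDA231, 1115 (63.7%) exceeded the mid-parent level, 424 (24.2%) followed and 34 (1.94%) fell short, with a median difference of 0.70. Of 1679 genes at least 2-fold higher in ZR75, 1254 (74.7%) fell short, 288 (17.2%) followed and 11 (0.655%) exceeded, with a median of -0.93. Among the 7322 genes not called 2-fold apart, 4810 (65.7%) followed, 876 (12%) exceeded and 754 (10.3%) fell short. Of the latter departures, 846 of the 876 were above both lines and 628 of the 754 were below both. This placement follows largely from the call rule and is not a separate result. With parents less than 2-fold apart, the mid-parent level is close to both lines. An excess at the limit is then already above both, and a shortfall at the limit is near or below the lower line. Of the genes higher in MDA231 that exceeded, 677 were above both lines, and of those higher in ZR75 that fell short, 239 were below both and 392 lay between the lines.

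The split widened with the distance between the parents. Among genes 1 to 2 apart on the log2 scale, 34.3% of 1003 higher in MDA231 and 25.6% of 1082 higher in ZR75 followed. At a gap of 2 to 4 these shares were 12.4% of 542 and 2.36% of 466. At a gap of 4 or more, 6.34% of 205 genes higher in MDA231 followed, and none of 131 genes higher in ZR75 did, of which 130 fell short with a median difference of -3.69.

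**Figure D2:**
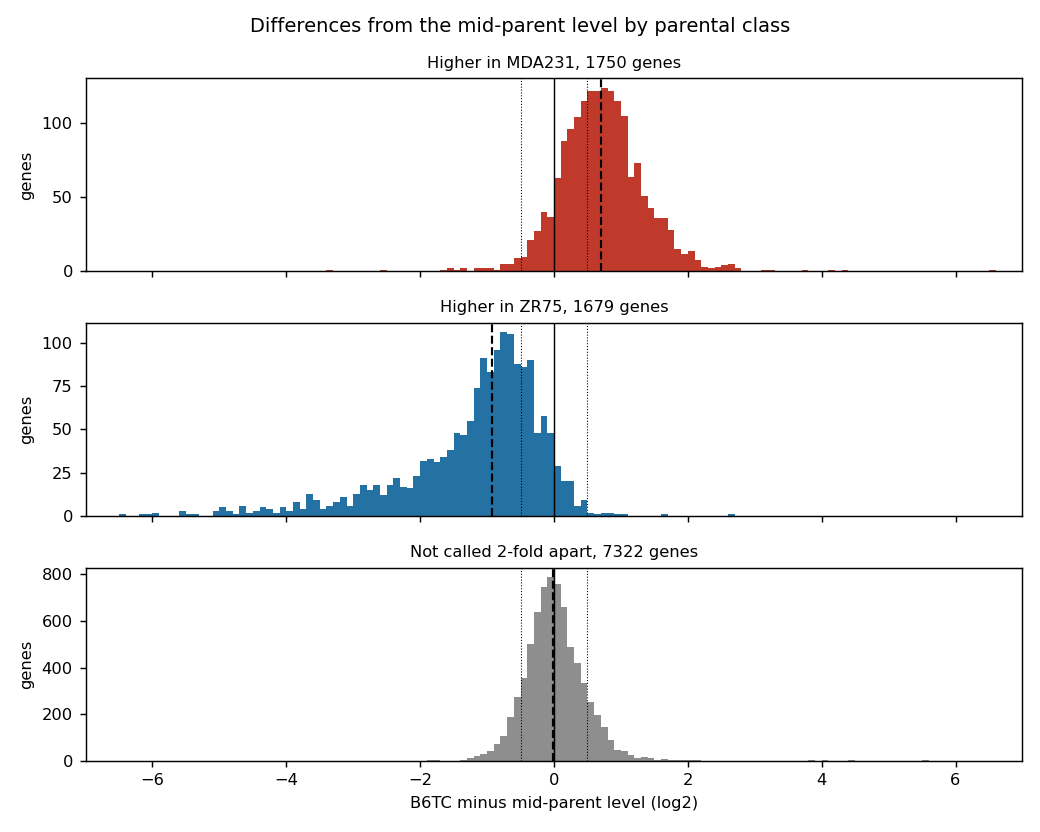
Number of genes by log2 difference between B6TC and the mid-parent level, in bins of 0.1, for genes higher in MDA231 (1750), higher in ZR75 (1679) and not called 2-fold apart (7322), with the median dashed and the limits of 0.5 dotted. The first group peaks above the expectation (median 0.70), the second below it with a long tail (median -0.93), and the third at it.

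On the linear scale, B6TC carried nearly the whole MDA231 excess and little of the ZR75 excess. The share of the parental excess was the B6TC level minus that of the lower line, divided by the difference between the lines, so that equal parts give 50%. Over 3579 probe sets higher in MDA231, the median share was 96.3%, 99.4% and 93.9% on the 3 B6TC arrays. Over 3056 probe sets higher in ZR75 it was 3.29%, 3.96% and 4.94%, and 1934 (63.3%) of them held less than 10%. For probe sets 16-fold or more apart, the medians were 106%, 109% and 103% for MDA231 and 0.10%, 0.03% and 1.32% for ZR75. The mix of both lines nearest to B6TC, over 6635 probe sets, held 100%, 100% and 98% MDA231 on the 3 arrays. The median absolute distance of the mean B6TC level was 0.75 from equal parts, 0.32 from MDA231 alone and 1.62 from ZR75 alone.

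**Figure D3:**
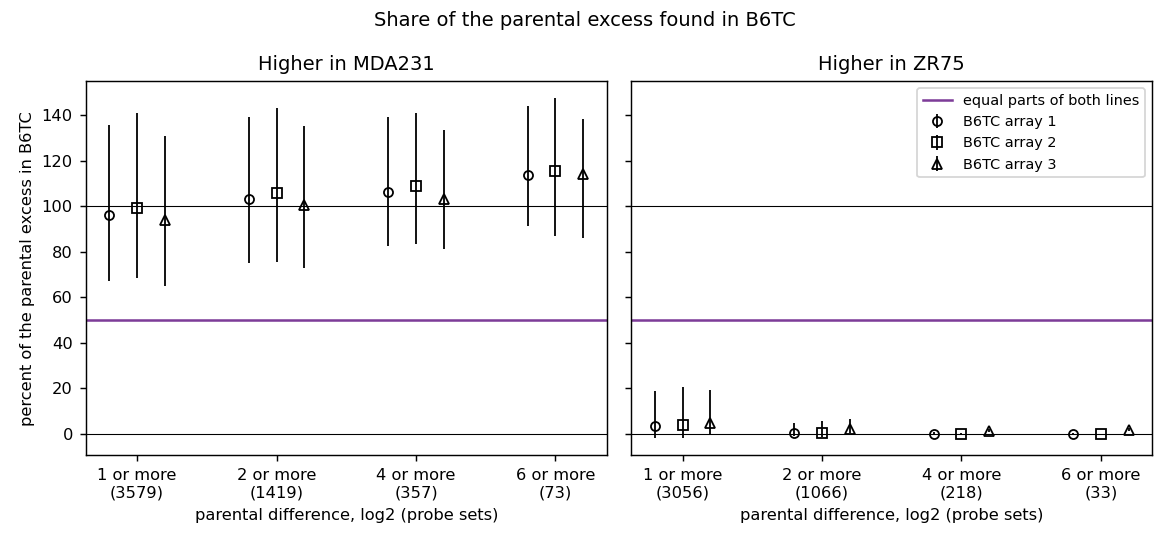
Median share of the parental excess found on each B6TC array, in percent, by the smallest parental log2 difference included (number of probe sets in brackets), with vertical lines for the quartiles. The medians for genes higher in MDA231 lie near or above 100% and those for genes higher in ZR75 near 0%, away from the 50% of equal parts.

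The third B6TC array stood apart for ZR75 transcripts. Among the parental lines, 226 probe sets were expressed only in ZR75, with a log2 mean of at least 8 there, below 6 in MDA231 and at least 3 apart. Of these, 213 (94.2%) were higher on it than on the other B6TC arrays, by a median of 0.38, against -0.01 over all tested probe sets. The first and second arrays were higher for 44 and 38 of them. For 362 probe sets that MDA231 alone of the parental lines expressed by the same levels, the third array was higher for 82 (22.7%), with a median of -0.04, and the first and second were higher for 213 and 231. The calls changed little without the third array. Of 1248 genes higher in ZR75 that fell short and were read by the same probe set without it, 1233 still fell short, with a median change of -0.02, and 10 changed by more than 0.5.

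The defining markers of the parents were read first. VIM, CAV1, EGFR, AXL and ZEB1, which mark mesenchymal breast cancer cells, were high in B6TC and MDA231 and low in ZR75, with ZEB1 at 9.49, 9.18 and 2.65. Among luminal markers, GATA3 was at 8.65 in B6TC, 8.20 in MDA231 and 13.32 in ZR75, and FOXA1 at 6.39, 6.11 and 10.32. ESR1, the estrogen receptor α gene, had 3 tested probe sets of 9, all of which fell short. The brightest fell short by -0.63 and another by -0.70, both with a parental gap far smaller than that of the remaining probe set. The latter was at 3.50, 3.53 and 4.26 in B6TC, 3.27, 3.32 and 3.35 in MDA231 and 10.25, 10.09 and 10.14 in ZR75, a shortfall of -5.41 (standard error 0.17, limma adjusted p = 2.23e-09). The ranges of B6TC and ZR75 did not come near each other, and those of B6TC and MDA231 were close, with only the third B6TC array set off.

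The genes with the largest excess were at or near background in both parents, apart from MMP1. The others were under 6 on every parental array and passed the filter through B6TC alone. Ranking by the excess favors such genes, so their low parental levels and small p-values are not separate support. MMP1, a collagenase whose gene is on chromosome 11, was at 13.42, 13.42 and 13.40 in B6TC, 7.80, 7.76 and 8.02 in MDA231 and 2.82, 2.98 and 2.66 in ZR75. It exceeded the mid-parent level of 6.90 by 6.51 (standard error 0.09, limma adjusted p = 3.22e-11). TNFSF15, a cytokine of the TNF family, was at 10.10, 10.21 and 10.07 in B6TC, 5.00, 4.72 and 4.77 in MDA231 and 4.37, 4.06 and 4.67 in ZR75, 5.51 above the mid-parent level (limma adjusted p = 4e-10, standard error 0.12). SPARC, a collagen-binding matrix protein, was at 8.81, 8.89 and 8.94, against 3.59, 3.69 and 3.60 and then 3.17, 2.97 and 3.11, 5.50 above the mid-parent level (limma adjusted p = 1.14e-11, standard error 0.05). For all 3 genes every B6TC array lay far above every parental array. GZMA, a granule protease of cytotoxic lymphocytes, exceeded by 5.34, and MMP3 (stromelysin 1) by 4.41. The other 7 of the 12 largest were RNF128 (4.43), RGCC (4.40), SAMSN1 (4.37), PRSS35 (4.13), HCLS1 (4.07), HSD11B1 (4.02) and SLC14A1 (3.96). Levels near background limit these differences from below, so log2 differences of such genes may understate the linear ones.

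**Figure D4:**
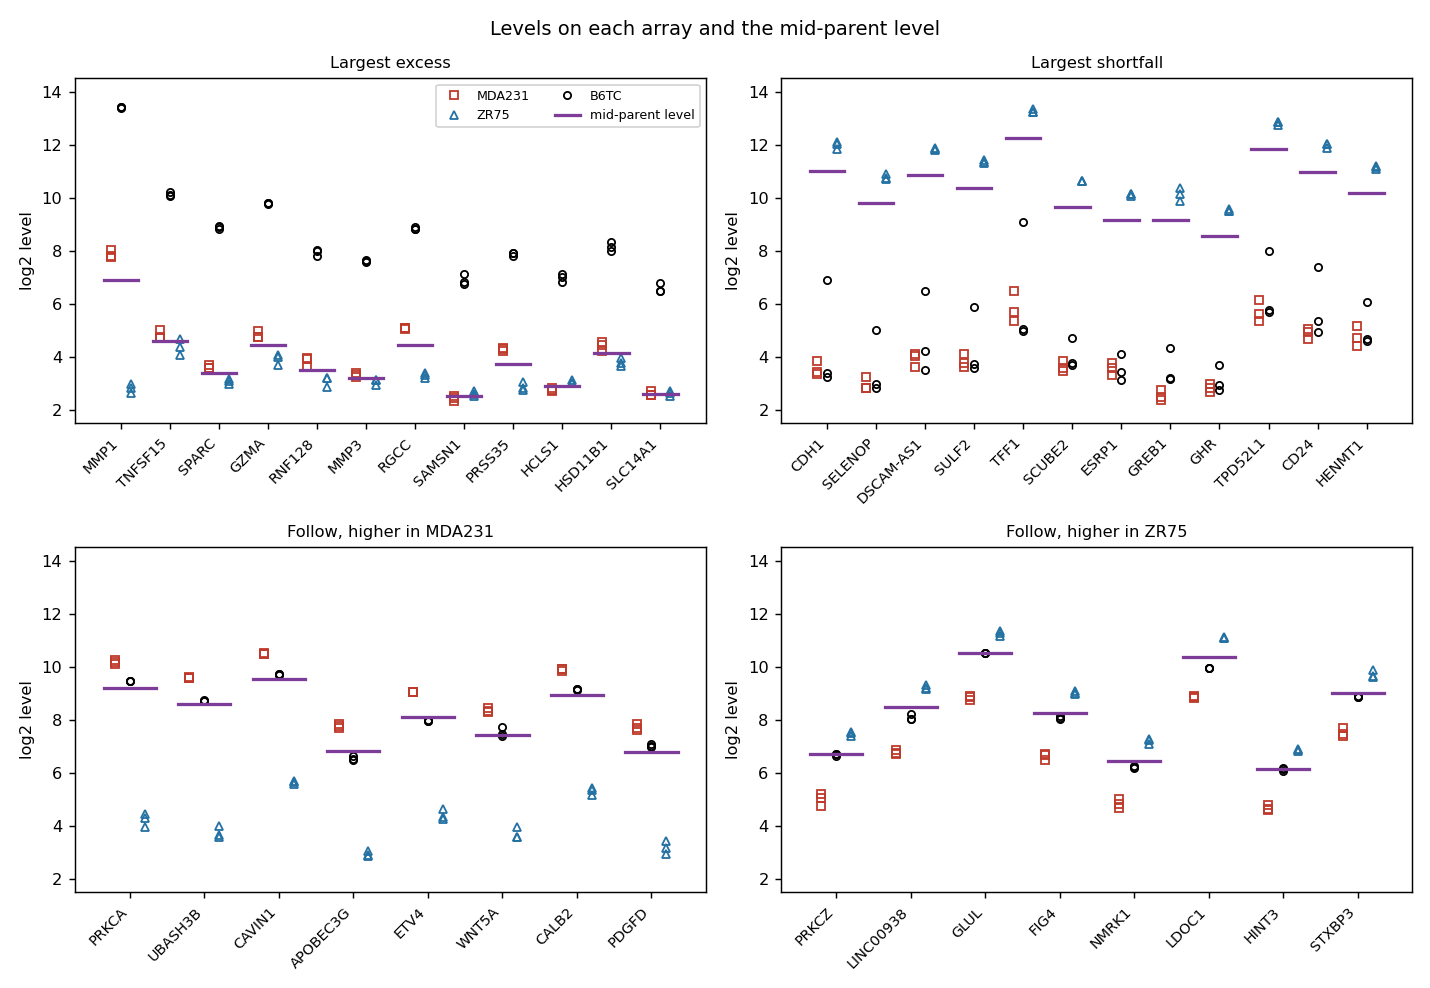
Log2 levels on each array for the 12 genes with the largest excess, the 12 with the largest shortfall and the 8 following genes with the widest parental gap in each direction, with the mid-parent level as a bar. In the first panel the B6TC arrays lie above both parents, in the second they lie with MDA231 except for the third array, and in the lower panels they lie between the parents.

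Promoters are shown for TNFSF15 and SPARC, which were low in both parents and high in B6TC. Also shown is that of PRKCA, which followed the expectation at a wide gap by 1 of its 4 probe sets. Each is the 250 bases before the start of the RefSeq gene on GRCh38.p14, read on the strand of the gene, with every CG dinucleotide, the site of DNA methylation, in capitals. TNFSF15 is at chr9:114792531-114792780 (minus strand), SPARC at chr5:151686916-151687165 (minus strand) and PRKCA at chr17:66302363-66302612 (plus strand).
TNFSF15: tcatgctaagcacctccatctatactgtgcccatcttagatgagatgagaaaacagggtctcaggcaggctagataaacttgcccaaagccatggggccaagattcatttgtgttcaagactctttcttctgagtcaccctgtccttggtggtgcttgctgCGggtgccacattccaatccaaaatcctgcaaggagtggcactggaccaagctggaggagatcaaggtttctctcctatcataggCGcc
SPARC: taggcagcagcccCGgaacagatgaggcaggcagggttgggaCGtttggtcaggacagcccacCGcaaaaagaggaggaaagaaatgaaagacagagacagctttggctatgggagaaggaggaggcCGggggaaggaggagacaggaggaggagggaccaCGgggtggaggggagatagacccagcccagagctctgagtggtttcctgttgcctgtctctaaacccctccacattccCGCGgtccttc
PRKCA: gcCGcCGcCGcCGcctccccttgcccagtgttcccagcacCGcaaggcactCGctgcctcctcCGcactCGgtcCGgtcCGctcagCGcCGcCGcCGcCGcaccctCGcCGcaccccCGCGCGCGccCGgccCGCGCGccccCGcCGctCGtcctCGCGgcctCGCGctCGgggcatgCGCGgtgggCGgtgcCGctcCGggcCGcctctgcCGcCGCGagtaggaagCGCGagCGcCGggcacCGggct
They hold 2, 7 and 47 CG dinucleotides, which is 0.128, 0.34 and 1.16 of the number that their C and G content would give by chance placement. The same ratio was lower than that of PRKCA for other genes that followed, at 0.618 for UBASH3B, 0.678 for LINC00938 and 0.853 for FIG4. CG reads the same on both strands, and 99.7% of the promoters hold at least 1. Over the 8867 of 10751 tested genes with a matched RefSeq promoter, the median of this ratio was 0.81, and 11.9% were below 0.5. Among genes higher in MDA231, the ratio was below 0.5 for 21.5% of those that exceeded and 14.3% of those that followed. Among genes not called 2-fold apart, to which TNFSF15 and SPARC belong, it was below 0.5 for 11.3% of those that exceeded, near the share over all genes. Of the 12 genes with the largest excess, 10 had a promoter, with a median of 0.212. Fewer than 80% were matched of the genes higher in ZR75 that fell short (76.2%) and of those higher in MDA231 that fell short (76.5%), so their ratios are not given. These counts describe letters and say nothing of methylation, which was not measured.

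The largest shortfalls were genes higher in ZR75, among them members of the epithelial, luminal and estrogen-induced lists. CDH1 on chromosome 16, the gene of the adhesion protein E-cadherin, was at 3.38, 3.26 and 6.89 in B6TC, 3.37, 3.44 and 3.86 in MDA231 and 11.84, 12.04 and 12.12 in ZR75. Its shortfall was -6.50 (standard error 0.77, limma adjusted p = 2.5e-05), and -7.69 without the third array. TFF1, a secreted trefoil peptide induced by estrogen, was at 5.04, 4.98 and 9.08 in B6TC, 5.35, 5.69 and 6.50 in MDA231 and 13.22, 13.34 and 13.23 in ZR75, a shortfall of -5.91 (standard error 0.90, limma adjusted p = 0.000153), or -7.26 without that array. For both genes the first and second B6TC arrays were at the MDA231 level and the third lay between the lines. ESRP1, an epithelial splicing factor, moved less with that array, from -5.59 to -5.87 without it, and GREB1, an estrogen receptor cofactor, from -5.57 to -5.95. The others of the 12 were SELENOP (-6.18), DSCAM-AS1 (-6.10), SULF2 (-5.99), SCUBE2 (-5.6), GHR (-5.41), TPD52L1 (-5.32), CD24 (-5.09) and HENMT1 (-5.06), and every one of the 12 was larger without the third array.

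Gene lists by function are described below by the members that passed the filter, beside the 18.6% exceeding, 19% falling short and 51.4% following over all genes and the median of -0.02. These shares take no account of which parent was higher. Of all genes higher in MDA231, 63.7% exceeded. Such genes that exceeded were 12 of 19 for caveolae and contractility and 11 of 17 for collagens and matrix proteins. They were 13 of 23 for immediate early and ERK feedback genes. All of these are near that share, whereas mesenchymal genes had 19 of 23. Of all genes higher in ZR75, 74.7% fell short, against 27 of 27 for epithelial junctions and polarity. Across the broad themes, the epithelial lists held 84 genes, of which 72 (85.7%) fell short, with a median of -1.93. The mesenchymal lists held 92 genes, of which 48 (52.2%) exceeded, with a median of 0.56. The lists of basal machinery held 273 genes, of which 210 (76.9%) followed, with a median of -0.07.

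**Figure D5:**
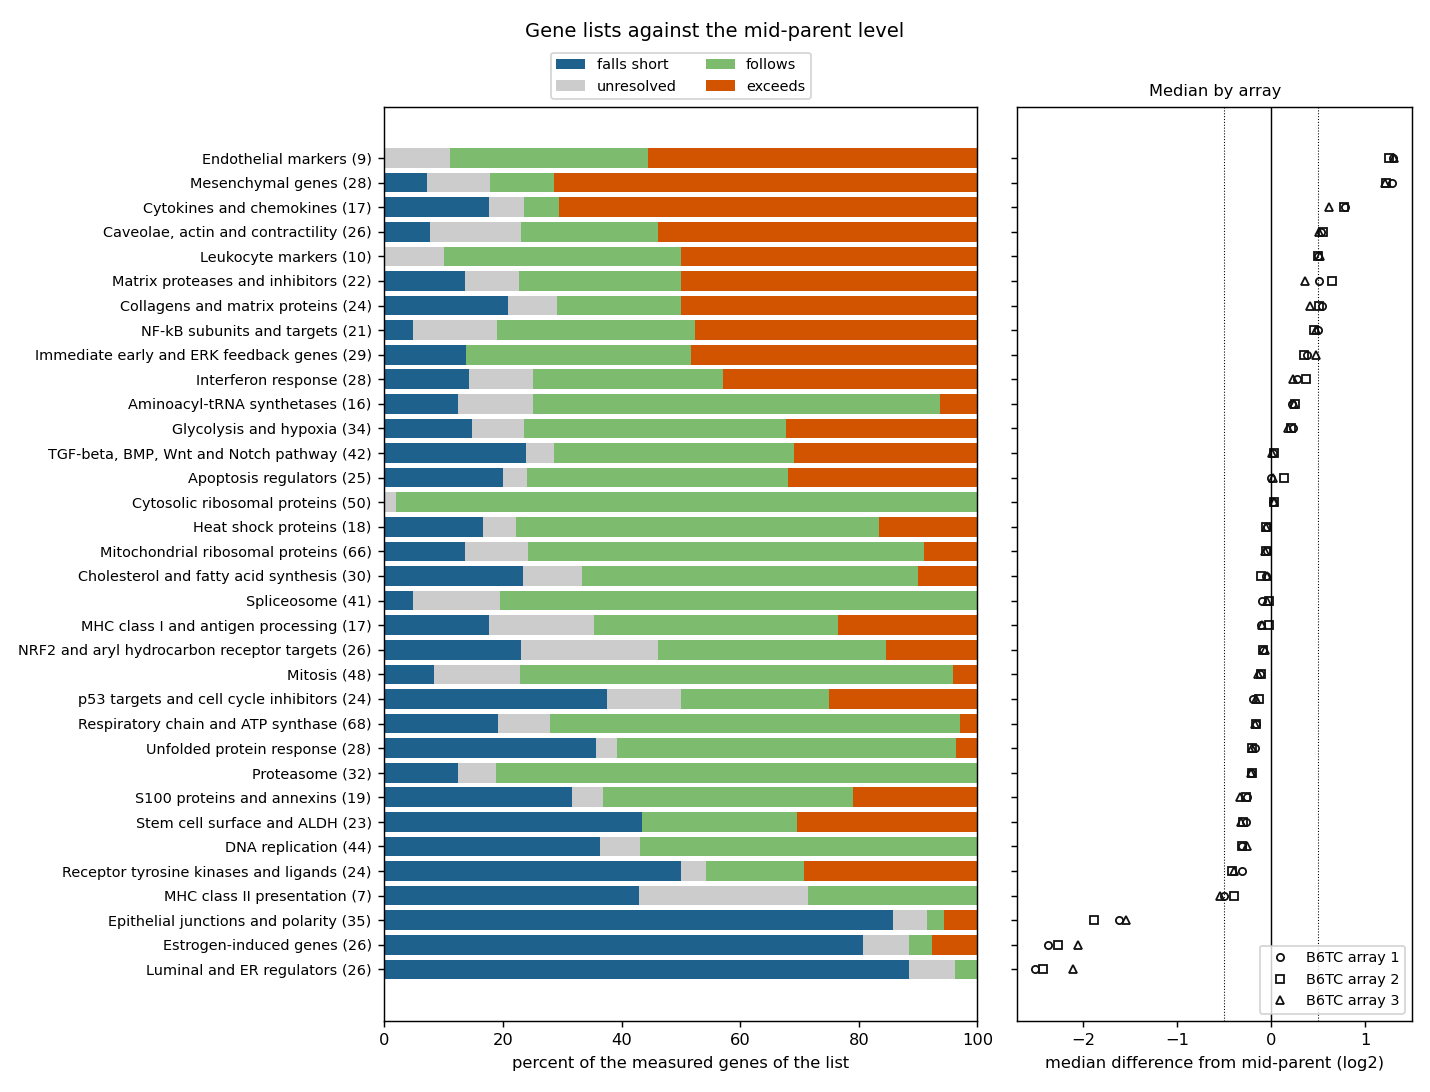
Left, percent of the measured genes of each of 34 lists that fell short, were unresolved, followed or exceeded (number of genes in brackets). Right, the median log2 difference from the mid-parent level on each B6TC array; luminal, estrogen-induced and epithelial lists lie below -1.5, mesenchymal genes above 1 and ribosomal proteins at 0.

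Of 40 genes of epithelial junctions and polarity, 35 were measured, and 30 fell short, 2 exceeded and 1 followed, with a median of -1.66 (-1.75 and the same counts without the third array). All 27 that were called higher in ZR75 fell short, and 10 of the list were below both lines. Besides CDH1 and ESRP1 they included RAB25 (-3.86), a GTPase of apical recycling, EPCAM (-3.15), an adhesion molecule, GRHL2 (-2.81), a regulator of the epithelial program, and JUP (-2.39), or plakoglobin. DSP, which encodes desmoplakin, was at 8.26 in B6TC, 7.08 in MDA231 and 10.69 in ZR75, so that it fell short by -1.54 but stayed between the lines. The exceptions were EHF, an ETS factor of epithelia that exceeded by 2.06, and PKP2, a desmosomal plaque protein that exceeded by 0.56.

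Among luminal and estrogen receptor regulators, 26 of 30 were measured, and 23 fell short, 1 followed and none exceeded, with a median of -2.35 (-2.47 and the same counts without the third array). GATA3 (-3.71) and FOXA1 (-3.0), factors that open chromatin for the estrogen receptor, fell short together with PGR (-4.31), the progesterone receptor, KRT19 (-3.68) and ERBB3 (-3.27). XBP1, a transcription factor of secretory cells, was at 7.35, 7.55 and 8.29 in B6TC, 6.61, 6.46 and 6.66 in MDA231 and 12.09, 12.15 and 12.19 in ZR75, a shortfall of -3.44 (standard error 0.19, limma adjusted p = 8.81e-08). All 3 of its B6TC arrays were above every MDA231 array and far below ZR75. Of the estrogen-induced genes, 26 of 30 were measured, and 21 fell short, 2 exceeded and 1 followed, with a median of -2.24 (-2.32 and the same counts without the third array). IRS1, an adaptor of insulin receptors, exceeded by 1.16, and FHL2 by 0.99.

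NRIP1, a corepressor that is itself induced by estrogen, was the exception with the widest gap in both lists. It was at 8.52, 8.52 and 8.47 in B6TC, 3.36, 2.87 and 3.33 in MDA231 and 9.13, 9.27 and 9.23 in ZR75. Every B6TC array lay far above MDA231 and just under ZR75, and the third array did not stand apart. Its difference of 0.27 from the mid-parent level (standard error 0.11, limma adjusted p = 0.0456) left it unresolved, since the interval crossed 0.5. B6TC held 60.6% of the ZR75 excess, and the second probe set of NRIP1 was at -0.37.

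Mesenchymal genes moved the other way, since 20 of 28 measured (39 listed) exceeded, 2 fell short and 3 followed, with a median of 1.25. Of them 14 were above both lines. Without the filter, 21 of 38 exceeded, 2 fell short and 12 followed, with a median of 0.65. SPARC, on this list, passed the filter through B6TC alone. VIM, the vimentin gene, was at 13.64, 13.61 and 13.61 in B6TC, 13.68, 13.68 and 13.69 in MDA231 and 6.12, 5.92 and 6.02 in ZR75, 0.93 above the mid-parent level (limma adjusted p = 1.07e-07, standard error 0.05). Its B6TC arrays were just under those of MDA231, where equal parts would have put them 1 lower. CDH11, a cadherin of mesenchyme, was above both lines and exceeded by 2.76, and SNAI2 (1.63), ZEB1 (1.30) and AXL (1.29) exceeded as well. FN1 (-0.52), fibronectin, and THY1 (-0.67) fell short, and S100A4 (-0.26) followed.

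The surroundings of the cell gave a mixed account. Matrix proteases and their inhibitors had 22 of 33 measured, of which 11 exceeded, 3 fell short and 6 followed, with a median of 0.50, and 10 were above both lines. Besides MMP1 and MMP3 these were PLAT (2.43) and PLAU (1.52), the plasminogen activators, ADAMTS1 (2.05) and SERPINE2 (1.94), while MMP9 (-0.83) fell short and MMP14 (0.08) followed. Without the filter, 12 of 31 of this list exceeded, 3 fell short and 14 followed, with a median of 0.14. Collagens and matrix proteins had 24 of 37 measured, of which 12 exceeded and 5 fell short, with a median of 0.50. CCN1 (1.70) and CCN2 (1.37), matricellular proteins, exceeded, and EFEMP1 (-2.55) and THBS1 (-0.79), thrombospondin 1, fell short. Over 35 genes of this list without the filter, 14 exceeded, 5 fell short and 13 followed, with a median of 0.20. Of 26 measured genes of caveolae and contractility (31 listed), 14 exceeded and 2 fell short, with a median of 0.55. CALD1 (1.86) and CAV2 (1.24) exceeded, whereas CAVIN1 (0.18), the coat protein of caveolae, followed, with its 3 probe sets from 0.04 to 0.68.

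Secreted signals, their receptors and downstream genes went in both directions. Of 17 measured cytokines and chemokines (33 listed), 12 exceeded and 3 fell short, with a median of 0.66, and 9 were above both lines. Of the 12, 5 passed the filter through B6TC alone, which fixed a level above both lines and favored the call. Without the filter, 14 of 32 exceeded, 3 fell short and 12 followed, with a median of 0.39. CXCL8 (2.09), IL18 (2.09), VEGFC (1.99), IL1B (1.73) and IL11 (1.16) exceeded, and CXCL12 (-3.0) and CXCL16 (-2.22) fell short. Among 24 receptor tyrosine kinases and ligands (35 listed), 7 exceeded and 12 fell short, with a median of -0.38. EGFR (0.97), MET (1.12) and the EGFR family ligands EREG (1.75) and NRG1 (1.69) exceeded, and ERBB2 (-0.86), ERBB3 (-3.27), ERBB4 (-3.06) and FGFR2 (-2.35) fell short. In the TGF-β, BMP, Wnt and Notch pathways 13 of 42 measured (49 listed) exceeded, 10 fell short and 17 followed, with a median of 0.05. Of the 13, 2 passed the filter through B6TC alone. Without the filter, 14 of 48 exceeded, 10 fell short and 20 followed, with a median of -0.003. TGFBR3 (2.41), BMP2 (1.67) and SMAD4 (1.25) exceeded, SMAD4 being at 8.91 in B6TC, 8.64 in MDA231 and 2.51 in ZR75, and the Notch members HEY2 (-3.67), HES1 (-2.15) and NOTCH3 (-1.72) fell short. Immediate early and ERK feedback genes had 29 of 31 measured, of which 14 exceeded and 4 fell short, with a median of 0.40. SPRY2 (1.73) and DUSP6 (1.5), inhibitors that ERK signaling induces, exceeded and were above both lines. FOS was at 4.45, 4.63 and 4.33 in B6TC, 6.80, 6.80 and 6.84 in MDA231 and 4.2, 4.04 and 3.96 in ZR75. It fell short by -1.54 (standard error 0.08, limma adjusted p = 4.57e-08), and its B6TC arrays lay closer to ZR75 than to MDA231. Its levels in B6TC and ZR75 were under 6 and near background, which limits what that closeness means. EGR1 (-1.33), induced with FOS by growth factors, also fell short.

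Immune functions went in different directions. Of 28 measured interferon response genes (36 listed), 12 exceeded, 4 fell short and 9 followed, with a median of 0.28, and 11 were above both lines. IFITM1, an antiviral membrane protein, was at 9.38, 9.36 and 9.40 in B6TC, 7.38, 7.41 and 7.44 in MDA231 and 7.38, 7.21 and 7.10 in ZR75, 2.06 above the mid-parent level (limma adjusted p = 1.29e-09, standard error 0.06). The parental arrays overlapped, and every B6TC array was above them. GBP1 (1.73), IFIT3 (1.49) and RIGI (1.48) exceeded, and BST2 (-1.27) and IRF7 (-0.86) fell short. NF-κB subunits and targets had 21 of 24 measured, of which 10 exceeded and 1, REL (-1.05), fell short, whereas the subunits RELA (0.07) and NFKB1 (0.20) followed. None of 7 measured MHC class II genes (13 listed) exceeded and 3 fell short. HLA-DRA was at 5.92, 6.03 and 6.03 in B6TC, 8.20, 8.14 and 8.19 in MDA231 and 5.07, 5.07 and 4.77 in ZR75, a shortfall of -1.33 (standard error 0.07, limma adjusted p = 9.42e-08) that put it between the lines. Of 17 MHC class I genes measured (21 listed), 4 exceeded, 3 fell short and 7 followed, shares near those of all genes. The peptide transporter gene TAP2 (1.02) and PSMB8 (0.92) exceeded, and HLA-B (-0.28) and HLA-C (-0.30) followed. Only 1 of the 2 probe sets of TAP2 exceeded, the range being 0.05 to 1.02.

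The general machinery of the cell mostly followed. Of 50 measured genes of cytosolic ribosomal proteins (76 listed), 49 followed and 1 was unresolved, with differences from -0.45 to 0.33. The 2 ends were RPL9 (-0.45) and RPL27 (0.33). These transcripts are near the top of the array's range, where differences may be compressed. Of 41 spliceosome genes measured (42 listed), 33 followed, 2 fell short and none exceeded. Proteasome subunits had 32 of 36 measured, of which 26 followed and 4 fell short, led by PSMD6 (-1.12). Mitochondrial ribosomal proteins had 66 of 67 measured, of which 44 followed, 9 fell short and 6 exceeded, from MRPS21 (-1.5) to MRPS6 (1.26). Of 68 measured genes of the respiratory chain and ATP synthase (77 listed), 47 followed, 13 fell short and 2 exceeded, with a median of -0.16. SDHD (1.01) and NDUFB8 (0.66) exceeded. Of 16 measured aminoacyl-tRNA synthetase genes (23 listed), 11 followed. Since most of these genes differed little between the parents, following them does not separate the parents either.

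Proliferation genes split between mitosis and replication. Of 48 mitosis genes, all measured, 35 followed, 4 fell short and 2 exceeded, with a median of -0.13. Of 44 measured DNA replication genes (45 listed), 25 followed, 16 fell short and none exceeded, with a median of -0.29, and 16 of the list were below both lines. GINS1 (-1.69), MCM5 (-1.12) and MCM7 (-0.80), of the helicase complex, and CDT1 (-1.19), which loads it, fell short, and PCNA (-0.45), the sliding clamp, was unresolved. Of 24 measured p53 targets and cell cycle inhibitors (31 listed), 6 exceeded, 9 fell short and 6 followed. CDKN1C (1.45) and ZMAT3 (1.13) exceeded, and DDB2 (-2.54), MDM2 (-0.79) and CDKN1A (-0.75) fell short. Of 25 apoptosis regulators measured (32 listed), 8 exceeded and 5 fell short, with BCL2A1 at 2.50 and BIK at -1.82.

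Metabolism and stress lists differed in how they divided. Of 34 genes of glycolysis and hypoxia measured (36 listed), 11 exceeded, 5 fell short and 15 followed, so that 32.4% exceeded. LDHB, a lactate dehydrogenase subunit, was at 12.73 in B6TC, 12.67 in MDA231 and 5.59 in ZR75 and exceeded by 1.04, while LDHA (-0.01) and GAPDH (-0.10) followed. PKM (-0.97), pyruvate kinase, fell short although it was higher in MDA231. Of 30 measured cholesterol and fatty acid synthesis genes (38 listed), 17 followed, 7 fell short and 3 exceeded. SQLE (-2.23) and HMGCS1 (-2.0), enzymes of the sterol pathway, fell short, and FDPS (-0.01) and IDI1 (-0.03) of the same pathway followed. Unfolded protein response genes had 28 of 30 measured, of which 16 followed, 10 (35.7%) fell short and 1, HERPUD1 (1.13), exceeded. Of 26 measured NRF2 and aryl hydrocarbon receptor targets (32 listed), 6 fell short, 4 exceeded and 10 followed. CYP1B1 (-2.83) and NQO1 (-2.10), enzymes of xenobiotic metabolism, were below both lines, and AKR1C1 (1.10) exceeded. Heat shock proteins had 18 of 22 measured, of which 11 followed, with HSPB1 (-2.35) and HSPH1 (1.13) at the ends.

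Stem cell surface and aldehyde dehydrogenase genes had 23 of 29 measured, of which 10 fell short, 7 exceeded and 6 followed. CD24, a surface glycoprotein of luminal cells, was at 5.35, 4.95 and 7.40 in B6TC, 4.66, 4.96 and 5.05 in MDA231 and 11.86, 12.03 and 12.04 in ZR75, and all 6 of its probe sets fell short. CD44, the hyaluronan receptor, was at 11.05, 11.09 and 11.04, against 11.42, 11.19 and 11.26 and then 8.38, 8.42 and 8.38, 0.59 above the mid-parent level (limma adjusted p = 4.28e-06, standard error 0.06). Its 7 probe sets ran from -0.29 to 0.59, and the brightest was the one that exceeded. ITGB1, integrin β1, exceeded by 0.56, with its 3 probe sets from 0.05 to 0.56. CXCR4, the receptor of CXCL12, was at 7.14, 7.51 and 7.38 in B6TC, 4.42, 4.19 and 4.48 in MDA231 and 9.41, 9.44 and 9.44 in ZR75. All 3 of its probe sets fell short, the brightest by -1.13 (standard error 0.10, limma adjusted p = 2.08e-06), and every B6TC array lay between the lines, with 21.2% of the ZR75 excess. Set against the mean of the log2 levels of the lines instead of the linear mean, it lay 0.45 above. S100 proteins and annexins had 19 of 24 measured, of which 4 exceeded, 6 fell short and 8 followed, with ANXA10 at 2.02 and ANXA9 at -3.86.

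Some genes were lower than in either parent although the parents were less than 2-fold apart. TOX3, a chromatin protein of luminal breast cells, was at 3.04, 3.16 and 3.03 in B6TC, 6.74, 6.57 and 6.60 in MDA231 and 7.30, 7.23 and 7.25 in ZR75, a shortfall of -3.90 (standard error 0.05, limma adjusted p = 3.22e-11). Every B6TC array was below every parental array, and both parents were above 6. The next were TRIM16 (-2.17), TLCD4 (-1.86), HSPB8 (-1.85), PMEPA1 (-1.77), SLCO3A1 (-1.72), CABLES1 (-1.44) and AKT1 (-1.36). AKT1, the kinase of the insulin and survival pathway, was at 7.69, 7.76 and 7.79 in B6TC, 8.62, 8.72 and 8.68 in MDA231 and 9.46, 9.45 and 9.39 in ZR75, and the 3 lines did not overlap.

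The additive expectation held at a wide gap for a small number of genes. PRKCA, protein kinase C α (chromosome 17), was at 9.46 on all 3 B6TC arrays, 10.26, 10.18 and 10.10 in MDA231 and 4.46, 3.98 and 4.29 in ZR75, and differed from its mid-parent level of 9.20 by 0.26 (standard error 0.10, limma adjusted p = 0.0403). Its B6TC arrays lay between the lines, and only 1 of its 4 probe sets followed, the range being -0.54 to 1.16. UBASH3B (0.11), CAVIN1 (0.18), WNT5A (0.12), ETV4 (-0.13), CALB2 (0.20), PDGFD (0.24) and APOBEC3G (-0.27) also followed with a higher level in MDA231. Only 2 of 4 probe sets of UBASH3B, 2 of 3 of CAVIN1 and 1 of 2 of PDGFD followed. On the other side, GLUL, glutamine synthetase (chromosome 1), was at 10.52, 10.53 and 10.52 in B6TC, 8.86, 8.76 and 8.90 in MDA231 and 11.26, 11.17 and 11.34 in ZR75. It lay 0.02 from its mid-parent level of 10.5 (standard error 0.05, limma adjusted p = 0.705), although its 3 probe sets ran from -0.67 to 0.02. PRKCZ (-0.04), HINT3 (-0.01), STXBP3 (-0.12), FIG4 (-0.19), NMRK1 (-0.23), LINC00938 (-0.36) and LDOC1 (-0.40) followed as well.

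Some genes kept part of their ZR75 level. Of the 1679 genes higher in ZR75, 89 (5.3%) were at least 2-fold above MDA231 in B6TC. Of 597 that were at least 4-fold apart, 27 held 25% or more of the ZR75 excess. DNAJC12, a co-chaperone, followed NRIP1 in the width of its gap and was at 7.5, 7.5 and 7.43 in B6TC, with 28.9% of the excess and a shortfall of -0.75. ME1, malic enzyme, held 70.0%, and RFXAP, a factor of MHC class II promoters, held 79.2%. The 2 probe sets of ME1 were 0.31 and 0.83 above the mid-parent level. By position, 5 of the 27 were on chromosome 6 (ME1, FIG4, NT5DC1, TSPYL4 and HINT3), out of 34 such genes there. The counts were 2 of 11 on chromosome 13, 3 of 22 on chromosome 10, 4 of 73 on chromosome 1 and none of 40 on chromosome 17. Chromosome 6 thus did not hold the highest share. Between these 5 on chromosome 6 lay CD24 (0.75% of the excess) and TPD52L1 (0.54%), so a retained level did not extend to each ZR75 gene of the stretch.

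Few genes ran against the parent that was higher. The 34 genes higher in MDA231 that fell short included NTM, a neural adhesion molecule, at 3.28 in B6TC, 7.51 in MDA231 and 3.36 in ZR75, with a shortfall of -3.31. The 11 genes higher in ZR75 that exceeded were GPR65 (2.66), BEX5 (1.66), ARRDC4 (1.02), MTRES1 (0.92), GCFC2 (0.87), SDHAF4 (0.84), PLOD2 (0.76), RAP1GAP2 (0.72), ACADSB (0.61), STK39 (0.54) and LNX1 (0.52). GPR65, a proton-sensing receptor, was at 6.26 in B6TC, 2.98 in MDA231 and 4.03 in ZR75. Both parental means were under 6 and near background, so passing the filter rested on its B6TC level, which favored the call.

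Markers of cells that a tumor could hold were also read. Of 37 leukocyte genes on the array, 10 passed the filter, and 5 exceeded, 4 followed and none fell short. The filter shapes these counts, since 3 of the 5 passed through B6TC alone. Over all 37, 5 exceeded, 1 fell short and 27 followed, and the median went from 0.51 with the filter to -0.10. The mean of the list was 5.35 to 5.40 on the B6TC arrays, 5.05 to 5.13 in MDA231 and 4.81 to 4.85 in ZR75. GZMA, SAMSN1 and HCLS1 made the largest differences, while the defining markers PTPRC, CD14, CD3E and ITGAM did not pass and were at most 5.77 on any array. Of 23 endothelial genes 9 passed, 5 exceeded, and ESM1 (3.85) and TIE1 (2.14) led them. ESM1 passed through B6TC alone, and over all 23 genes 6 exceeded, 2 fell short and 13 followed, with a median of 0.03. CDH5, KDR and VWF did not pass, and PECAM1 was at 6.68 in B6TC, 6.69 in MDA231 and 5.6 in ZR75. Both lists hold genes that breast cancer lines also express, and the part of other cells in these differences was not tested.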

How the data were processed

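RNA of 3 cell lines was measured on 9 arrays. The deposited values are log2 expression levels made by the authors. The submitters' notes name Affymetrix Expression Console and RMA, the methods name GC-RMA and GCOS, and versions of the former are not given in the sources used here, so background correction and quantile scaling could not be repeated. Symbols were updated to GRCh38.p14 by gene identifier: 41091 probe sets had a single symbol, 1801 several and 11721 none. In R 4.3.3, limma 3.58.1 was fitted with 1 mean per line over all 9 arrays (6 residual and 3.68 prior degrees of freedom), the difference from the mid-parent level was given a standard error by the delta method, and p-values were adjusted by Benjamini and Hochberg over 21095 probe sets. The script was tested on simulated data. A gene was read by its brightest probe set.

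Genes named were the 12 largest differences in each direction, the 8 following genes with the widest gap in each direction, the 8 lowest below both lines at a parental gap under 2-fold, per list the 3 largest differences and the following member with the widest gap, and genes of proteins studied in these cells. Other list members and exceptions were named after their values were seen. The lists and members were chosen with earlier results of these data known. Alternatives were other filters, expectations, scalings, fits, probe set choices and bands, a replicate block, and leaving out each array.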

Additional observations from a re-analysis of the deposited data

How the results depend on the processing

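The direction of the main split held under the alternatives run. The share of probe sets higher in MDA231 that exceeded was 72.7% against the mean of log2 levels, 40.2% with 2 parts MDA231 to 1 of ZR75 and 74.6% with 1 to 2, and the share of those higher in ZR75 that fell short was 62.9%, 60.1% and 82.9%. Counts that exceeded, fell short and followed were 2303, 2082 and 5600 without probe sets that may bind several transcripts, 2002, 2042 and 5549 with the model fitted again on 1 probe set per gene, 1862, 1985 and 5806 with the mean over a gene, 6216, 6789 and 4240 at a limit of 0.25, and 1183, 1560 and 17431 at a limit of 1, where 25.1% of those higher in MDA231 exceeded and 44.7% of those higher in ZR75 fell short. Without the filter 38449 followed. These alternatives used other limits or covered other numbers of probe sets or genes, with 11384 probe sets without multi-transcript ones and 54613 without the filter. Without multi-transcript probe sets more exceeded than fell short, unlike over all tested probe sets. What set these changes was not tested. After centering each array on its median, 4004 exceeded and 3717 fell short, and after quantile normalization 3382 and 4443. The median share of the MDA231 excess in the mean B6TC profile, 96.9%, became 100.9% with centered arrays, 103.5% without multi-transcript probe sets, 103.8% with 1 probe set per gene, 100.9% with the gene mean and 103.1% for 4-fold gaps. The ZR75 share, 3.88%, became 5.10%, 2.78% and 0.901% with centered arrays, the gene mean and 4-fold gaps.

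Leaving out each array gave 3610 to 3821 exceeding, 3948 to 4048 falling short and 10239 to 10897 following, shares of 55.6% to 58.4% and 72.8% to 75.2% by parent, and shares of the excess of 95.4% to 99.1% and 3.54% to 4.38%. With the replicate block, 3723 exceeded, 3995 fell short and 10865 followed. Arrays with the same number had correlations of -0.102 to 0.176 of their deviations. Arrays with different numbers were not compared, so whether the numbers pair them was not tested.

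Against the mean of log2 levels, APOBEC3G (1.19), FIG4 (0.26), NMRK1 (0.21), COL6A2 (0.17), S100A4 (0.55) and CXCR4 (0.45) turned positive. With 2 parts MDA231, CALB2 (-0.18), CAVIN1 (-0.21) and FIG4 (0.18) turned, and with 2 parts ZR75, APOBEC3G (0.27) and S100A4 (0.20). The medians of 10 lists within 0.2 of 0 changed sign under at least 1 alternative, and that of the leukocyte list went from 0.51 to -0.10 without the filter. Levels under 6 are near background, and 3 technical arrays per line limit what the tests cover.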

Other observations

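The chromosomes differed in their median difference from the mid-parent level. It was highest on chromosomes 21 (0.26, with 34.2% of genes exceeding), 13 (0.25, 31.8%) and 4 (0.20, 33.5%), and lowest on chromosomes 7 (-0.22, with 30.8% falling short), 22 (-0.21, 27.8%) and 15 (-0.18, 27.9%). In windows of 25 neighboring tested genes, ordered on GRCh38.p14, the 5th to 95th percentile of the window median was -0.42 to 0.46. The highest window was on chromosome 11 from BIRC2, an inhibitor of apoptosis, to FDX1, and includes the matrix metalloproteinase cluster. Its median was 0.92, and 20 of its 25 genes exceeded and none fell short. On chromosome 4 the window from FNIP2 to VEGFC was at 0.83, with 20 exceeding. The lowest window was on chromosome 17 from SUPT4H1 to TBX2, at -1.45 with 17 of 25 falling short, followed by chromosome 15 from EID1 to WDR72, at -1.01 with 18 falling short. Median MDA231 minus ZR75 was -1.89 and -1.52 there, and median B6TC minus MDA231 was 0.09 and 0.01, so B6TC was near MDA231. For the chromosome 11 and 4 windows, these medians were 1.84 and 0.56, and then 0.34 and 0.54. These are values of overlapping windows chosen as the extremes of 10183, without a test.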
